A study of Mus musculus with 6 samples.

Results

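The genes of the tumour necrosis factor (TNF) superfamily and their nearest partners were examined in the uterine luminal layer and in blastocysts of *Lif* eKO mice, *Lif* eKO mice given rLif and their controls. They were chosen by name, with earlier results of these data known. The names were *Tnf*, the numbered *Tnfsf*, *Tnfrsf*, *Tnfaip*, *Traf* and *Ripk* genes, *Fas*, *Cd40*, *Cd40lg*, *Ltbr*, *Ngfr*, *Edar*, *Eda2r* and *Nfkbia*. This gave 59 of the 23420 genes in the deposited tables of the luminal layer and of blastocysts. By role they were 13 ligands, 7 receptors with a death domain, 16 receptors without one, 3 decoy receptors, 7 adaptors, 4 RIP kinases, 2 feedback inhibitors of NF-kB and 7 other proteins named for induction by TNF or for likeness to such a protein. All 59 were protein coding and lay over the GENCODE M21 gene of the same name.

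Ligands of this superfamily are mostly trimeric membrane proteins or cytokines shed from the membrane, and they act by clustering their receptors. Receptors with a death domain can assemble complexes that contain RIP kinases and caspases, whereas the others bind TRAF adaptors directly, and both routes can release NF-kB into the nucleus. NF-kB in turn induces *Nfkbia* and *Tnfaip3*, whose products, IkBa and A20, shut the pathway down. In the uterus around implantation, TNF and its receptors are known from epithelial cells and from leukocytes.

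Each of the 6 groups was 1 library. Samples were taken on day 4 of pregnancy at 8 pm, when attachment is near. The luminal layer came from PBS-treated Lif-floxed/floxed females (control), from PBS-treated Lif-floxed/floxed Ltf-Cre/+ females (*Lif* eKO), and from females of the latter genotype given rLif. Recombinant Lif was injected at 20 µg/head, first at 10 am and again at 6 pm, so tissue was taken 2 h after the second dose. Blastocysts of the genotype Lif-floxed/+ were flushed from females of these 3 kinds, so the blastocyst groups differed by the mother and by what the mother had received. Cre was driven by the *Ltf* promoter, which is active in the uterine epithelium, and the control females carried the floxed alleles without Cre. RNA of several animals, or many blastocysts, had been pooled into each library, so no difference has a replicate check.

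Total counts ranged from 18996158 to 28460465 per library, and the TNF superfamily genes took 0.133% to 0.195% of them in the luminal libraries and 0.0745% to 0.0888% in the blastocyst libraries. *Lif* itself, the targeted gene, had 0 counts in the control-labelled luminal library, 28 in its eKO-labelled counterpart and 0 after rLif. The paper gives the uterine glands as the site of Lif expression before attachment. In the luminal layer, 0 counts thus do not by themselves go against the control label. The labels do not account for the 28 counts in the eKO-labelled library. The counts cover the whole gene, of which the floxed alleles remove only part, so they do not check the deletion itself. Luminal libraries are therefore named by their labels throughout, and values are given in the order control-labelled, eKO-labelled and rLif-labelled, the last being eKO females given rLif. In blastocysts *Lif* had 1447, 1736 and 1250 counts. All 8 luminal epithelium markers had counts in each luminal library, and the inner cell mass markers *Nanog*, *Pou5f1* and *Zfp42* were at 0 there. Levels in CPM are counts scaled by TMM to a common library size within a tissue. The 8 markers summed to 4697, 6234 and 4861 CPM in the luminal libraries. In blastocysts the same list summed to 8017, 8286 and 7792 CPM, so a high sum does not mark the luminal layer. In the eKO-labelled luminal library 2 of the 8 were highest and 5 lowest. The 2 were *Krt8*, at 838, 1727 and 606 CPM, and *Krt19*, at 338, 1990 and 349 CPM. All 5 trophectoderm markers had counts in each blastocyst library, with sums of 2746 to 3037 CPM, and the uterine epithelial marker *Wnt7a* was at 0 there. Fewer cells of a type and less RNA per cell cannot be told apart in such libraries.

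Different members of the superfamily led in the 2 tissues. Levels are compared between genes in TPM, which corrects for gene length. In the luminal libraries *Nfkbia* was the most abundant member, at 536, 434 and 936 TPM in the control-, eKO- and rLif-labelled libraries. *Tnfrsf21*, the death-domain receptor DR6, followed at 149.8, 73.9 and 64.3 TPM, and *Ltbr*, the lymphotoxin beta receptor, at 83.2, 47.6 and 86.2 TPM. *Tnfrsf12a*, the receptor of the ligand TWEAK, had 80.2, 17.4 and 91.0 TPM. *Tnfaip1* had 56.9, 40.0 and 46.5 TPM. *Nfkbia* exceeded all other members in each luminal library, whereas the ranges of *Tnfrsf21*, *Ltbr* and *Tnfrsf12a* overlapped.

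In blastocysts the adaptor *Traf4* led with 133, 142 and 151 TPM in the libraries from control, eKO and rLif-treated eKO mothers. *Tnfaip1* had 109.9, 107 and 100.5 TPM. *Tnfrsf9*, the costimulatory receptor 4-1BB, had 100.1, 82.9 and 54.6 TPM, so this receptor, best known from T cells, came next after *Traf4* and *Tnfaip1* in the libraries from control and eKO mothers. *Traf7*, whose range overlapped that of *Tnfrsf9*, had 78.0, 71.7 and 76.8 TPM, and *Tnfrsf12a* had 47.1, 32.7 and 41.7 TPM. *Nfkbia* reached only 30.7, 15.9 and 7.66 TPM there. Its lowest luminal library was 22.7-fold above its highest blastocyst library in CPM scaled over all 6 libraries.

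A member was called between tissues when the lowest of the 3 libraries of one tissue was more than 2-fold above the highest of the other, with no test, since the 3 libraries of a tissue are different groups. Of 57 members with at least 10 counts over the 6 libraries, 25 (43.9%) were called, against 46.1% of all 17081 genes. The direction was uneven: 22 members (38.6%) were higher in the luminal layer, against 24% of all genes, and 3 (5.26%) were higher in blastocysts, against 22.2%. Of the 22, 9 had 0 counts in every blastocyst library, among them the decoy receptor for RANKL, *Tnfrsf11b* (osteoprotegerin, with 211, 113 and 133 luminal counts), the death ligand *Tnfsf10* (TRAIL, with 109, 298 and 122), *Cd40* (39, 92 and 65) and *Tnfrsf26* (105, 41 and 61). Raising counts below 3 in the blastocyst libraries to a floor of 3 kept 18 of the 22. *Tnfsf4*, *Tnfsf8*, *Tnfsf18* and *Tnfrsf14* were lost, so for these the difference was not detectable at this depth. Others with a large gap were *Tnfaip8l1*, 48.5-fold apart, *Ltbr*, 15.6-fold, *Tnfrsf18* (GITR), 15.3-fold, *Traf5*, 14.0-fold, *Tnfaip6*, 8.85-fold, *Tnfrsf21*, 5.41-fold, *Tnfrsf19* (TROY), 4.48-fold, and *Tnfrsf1a*, 3.25-fold. *Traf1*, *Tnfsf13*, *Tnfaip8l2* and *Tnfaip8l3* were also higher in the luminal layer, as was *Tnfrsf13b* at 8 to 14 counts per luminal library.

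The 3 members higher in blastocysts were *Tnfrsf9*, *Traf7* and *Tnfrsf8*. *Tnfrsf9* (chromosome 4, 150920155 to 150946102, GRCm38/mm10) had 1884, 1584 and 1052 counts in blastocysts and 164, 199 and 184 in the luminal layer, a gap of 6.99-fold. *Tnfrsf8*, the receptor CD30, lies on the same chromosome at 145268976 to 145315147 and had 110, 67 and 80 counts in blastocysts against 2, 0 and 2, a gap of 40.0-fold that rests on luminal libraries under the floor. *Traf7* differed by a gap of 2.15-fold, and part of its exons overlap *Caskin1*, so its counts are uncertain. No ligand was higher in blastocysts, and 5 of 11 ligands tested were higher in the luminal layer, against 24% of all genes. Of these 5, *Tnfsf18*, *Tnfsf4* and *Tnfsf8* were lost with the floor. The summed TPM of the 13 ligands was 26.2, 16.6 and 16.8 in the luminal libraries and 5.85, 3.73 and 0.724 in the blastocyst libraries. That of the 7 adaptors was 109, 88.7 and 82.0 against 268, 261 and 275. Tissue and the amount and handling of its RNA cannot be told apart here.

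**Figure D1:**
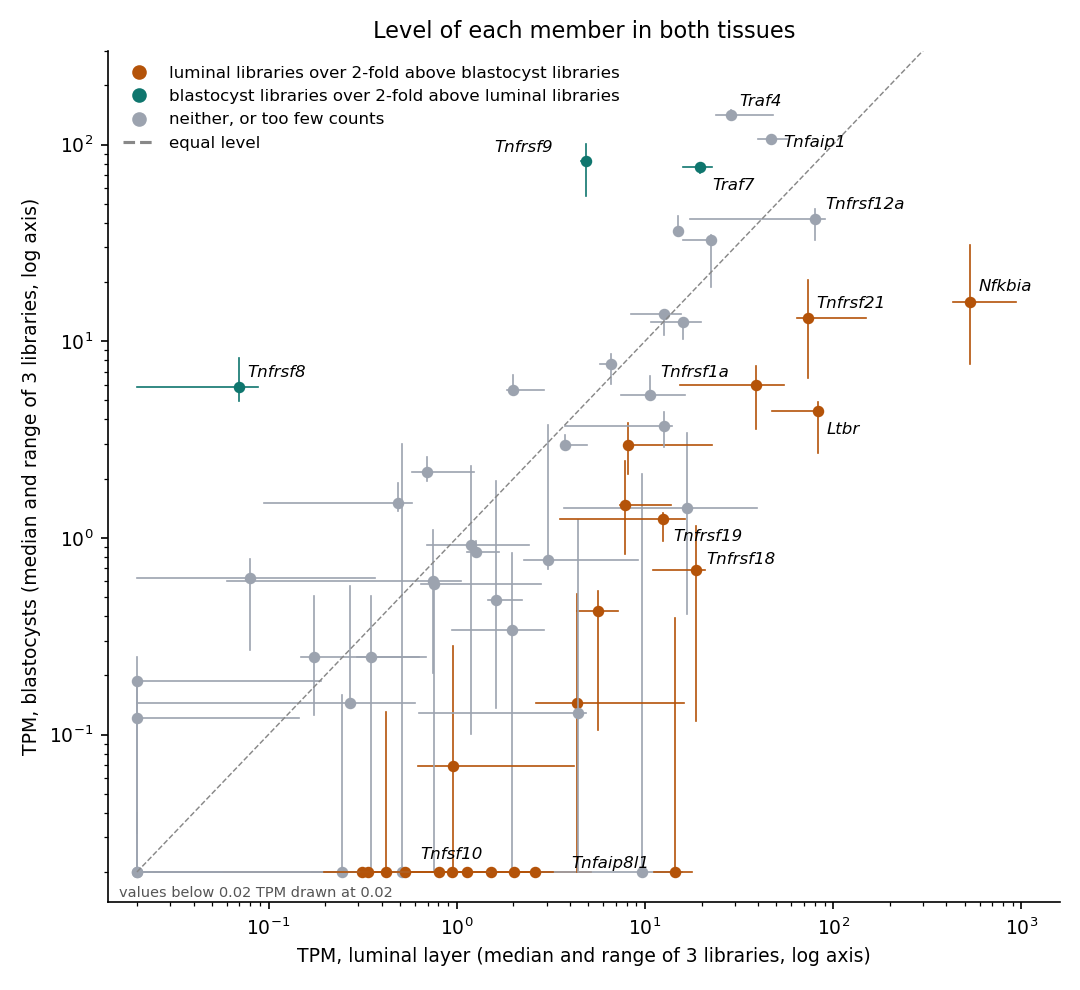
Each point is 1 of the 59 members, with its median TPM over the 3 luminal libraries (x, log axis) and over the 3 blastocyst libraries (y, log axis), and lines over the range of the 3 libraries. Values below 0.02 TPM are drawn at 0.02. *Nfkbia*, *Tnfrsf21* and *Ltbr* lie far below the line of equal level, *Tnfrsf9* and *Tnfrsf8* above it, and points on the lower edge had a median of 0 counts in blastocysts.

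In the luminal layer the question was which members differed where epithelial Lif was removed, and which differed again after rLif. The ratio of 2 libraries was called when its exact 95% interval lay wholly beyond 2-fold, that is, beyond a log2 ratio of 1 or -1. These intervals cover counting error only. Where a library had 0 counts, the bound on the fold puts a floor of 3 counts there and takes the other count as measured. The exact interval, which also holds the error of the other count, reaches lower, and its limit follows each bound. Between the eKO- and control-labelled libraries, 17 of 55 members tested (30.9%) were called, against 17.2% of 15694 genes. Of these, 7 were higher and 10 lower in the eKO-labelled library, against 8.08% and 9.15% of all genes. Between the rLif- and eKO-labelled libraries, 16 members were called, against 15.6% of all genes. There 9 were higher, against 7.88% of all genes, and 7 lower, against 7.77%. Between the rLif- and control-labelled libraries, 8 were called, 3 higher and 5 lower, against 9.16% of all genes, 4.12% higher and 5.04% lower. Scaling by total counts gave 2 higher and 7 lower in that last comparison. The median log2 ratio of the 55 members was -0.19 for eKO against control, beside 0.01 for all genes, and 0.03 for rLif against eKO, beside -0.01. In all, 24 members were called in at least 1 luminal comparison, and 4 were not tested, with at most 6 counts over the 3 libraries. For eKO against control, the 37 members that were not called and had counts in both libraries ranged in log2 ratio from -2.19 (*Tnfrsf22*) to 1.27 (*Tnfrsf11a*). Over the 3 luminal libraries, 20 of the 55 stayed within 2-fold. The share of all genes was counted neither for these 20 nor for the 24. The 3 comparisons share libraries, so the same library enters every pair of ratios set side by side below.

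The ligands were few in reads and moved in both directions. *Tnfsf9* (4-1BB ligand; chromosome 17, 57105385 to 57107757) had the most reads of the ligands that were lower in the eKO-labelled library, with 280, 52 and 216 counts in the control-, eKO- and rLif-labelled libraries. The library labelled eKO was the low one, and the other pair was close together. The log2 ratio was -2.61 (95% interval -3.07 to -2.18) for eKO against control and 2.20 (1.75 to 2.66) for rLif against eKO. *Tnf* (chromosome 17, 35199391 to 35201996) had 44, 8 and 15 counts, and its eKO-labelled library stood -2.65 (-3.94 to -1.54) from control on the log2 scale. With rLif it had 1.05 against eKO (-0.28 to 2.49) and -1.60 against control (-2.55 to -0.72), neither of which was beyond the limit. *Tnfsf11*, which encodes RANKL, had 18, 0 and 10 counts, so the eKO-labelled library was at least 6.83-fold lower than the control-labelled one (interval limit a log2 ratio of -2.32) and at least 3.68-fold lower than the rLif-labelled one (limit 2.47-fold).

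Other ligands had the opposite order. *Tnfsf13*, encoding the B-cell cytokine APRIL, had 15, 130 and 29 counts, with log2 ratios of 2.93 (2.15 to 3.81) for eKO against control and -2.02 (-2.66 to -1.43) for rLif against eKO. Its exons overlap the readthrough gene *BC096441*, as do those of *Tnfsf12*, which lies 0.685 kb away on chromosome 11, so the counts of both are uncertain. *Tnfsf12*, encoding TWEAK, had 54, 46 and 50 counts. The library labelled eKO was thus high for one of these neighbours and near the others for the second. *Tnfsf18*, the GITR ligand, had 6, 55 and 20 counts, for a log2 difference of 3.01 (1.80 to 4.52) between eKO and control. *Tnfsf8*, the CD30 ligand, had 16, 13 and 1 counts, and the rLif-labelled library was lower than control by a log2 ratio of -4.04 with a wide interval of -9.43 to -1.36. For *Tnfsf10* the log2 ratio of eKO to control was 1.27, and its interval of 0.94 to 1.60 reached inside the limit. *Tnfsf13b* (BAFF) had 48, 92 and 29 counts and was within the limit in all 3 comparisons. The other ligands tested were not called.

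Both TNF receptors were low in the eKO-labelled library. *Tnfrsf1a* (chromosome 6, 125349723 to 125362483), the broadly expressed receptor TNFR1 with a death domain, had 1705, 609 and 1522 counts, or 67.5, 21.2 and 58.5 CPM. Its log2 ratio was -1.67 (-1.81 to -1.54) for eKO against control and 1.46 (1.33 to 1.60) for rLif against eKO. *Tnfrsf1b* (chromosome 4, 145212368 to 145246870), the TRAF-binding receptor TNFR2, had 895, 342 and 1238 counts, or 35.5, 11.9 and 47.5 CPM. The corresponding ratios were -1.57 (-1.76 to -1.39) and 2.00 (1.82 to 2.17). Under edgeR's exact test with an assumed dispersion, described below, *Tnfrsf1a* lost both calls and *Tnfrsf1b* that for eKO against control. For both genes the control- and rLif-labelled libraries differed by less than the limit, with log2 ratios of -0.21 and 0.42.

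*Fas* and *Tnfrsf12a* showed the same order more steeply. *Fas* (chromosome 19, 34290659 to 34327770), the receptor that triggers apoptosis on binding Fas ligand, had 114, 21 and 159 counts. The log2 ratios were -2.63 (-3.37 to -1.95) for eKO against control and 3.06 (2.40 to 3.79) for rLif against eKO. *Tnfrsf12a* (chromosome 17, 23675445 to 23677449) had 1116, 310 and 1594 counts, giving -2.03 (-2.22 to -1.85) and 2.50 (2.33 to 2.68). Its exons overlap *Hcfc1r1*, and its counts are uncertain to that extent.

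Among the remaining death-domain receptors, *Tnfrsf21* had 7834, 4958 and 4234 counts, with log2 ratios of -0.85 for eKO against control and -0.93 for rLif against control, so it was low in both eKO libraries but inside the limit. *Tnfrsf25* (DR3, the TL1A receptor) had 15, 83 and 22 counts, with ratios of 2.28 (1.48 to 3.18) and -1.77 (-2.52 to -1.08) for eKO against control and for rLif against eKO. *Edar*, the receptor of ectodysplasin, had 0, 13 and 0 counts. It was thus at least 3.81-fold higher in the eKO-labelled library than in control (interval limit 2.68-fold), and at least 3.93-fold higher than in the rLif-labelled one (limit 2.76-fold). *Ngfr*, the low-affinity neurotrophin receptor p75, had 18, 5 and 0 counts and was at least 6.19-fold lower in the rLif-labelled library than in control (interval limit 4.53-fold).

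Of the 14 receptors without a death domain that were tested, 4 were called for eKO against control, against 17.2% of all genes. Besides *Tnfrsf1b* and *Tnfrsf12a* these were *Tnfrsf26* (105, 41 and 61 counts, log2 ratio -1.54, interval -2.10 to -1.01) and *Tnfrsf4*, the receptor OX40. *Tnfrsf4* rested on 1, 16 and 22 counts, and its log2 ratios against control of 3.81 (1.13 to 9.20) and 4.42 (1.79 to 9.78) have very wide counting intervals. *Tnfrsf19*, which can signal to JNK, had 855, 1445 and 306 counts. It was lowest in the rLif-labelled library, at -1.53 (-1.72 to -1.34) against control and -2.10 (-2.28 to -1.92) against eKO. *Ltbr*, with 2509, 1844 and 3275 counts, and *Tnfrsf18*, with 270, 207 and 381, were likewise lowest in the eKO-labelled library without passing the limit. Their log2 ratios for rLif against eKO were 0.97 and 1.02. *Tnfrsf9* was level at 164, 199 and 184 counts.

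The decoy receptors, which bind ligand without a signalling tail, were thin in reads apart from *Tnfrsf11b*. *Tnfrsf22* had 16, 4 and 24 counts, with a log2 ratio of 2.73 (1.19 to 4.71) for rLif against eKO. It lies on chromosome 7 between *Tnfrsf26*, 8.88 kb away, and *Tnfrsf23*, 16.2 kb away. All 3 genes of this cluster had their lowest luminal count in the eKO-labelled library, with 41, 4 and 18 counts, although only *Tnfrsf26* was beyond the limit against control. *Tnfrsf11b* had 211, 113 and 133 counts and was within the limit.

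Of the 7 adaptors, 1 was called for eKO against control, against 17.2% of all genes. *Traf1*, an adaptor that binds TRAF2 and is itself an NF-kB target, had 271, 980 and 337 counts, with log2 ratios of 1.67 (1.47 to 1.87) for eKO against control and -1.40 (-1.58 to -1.22) for rLif against eKO. *Traf2*, its partner at the TNF receptors, had 646, 822 and 860 counts, and its log2 ratios in the 3 comparisons lay between 0.16 and 0.37. The 6 other adaptors had log2 ratios between -0.83 (*Traf4*) and 0.16 (*Traf2*) for eKO against control.

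Of the RIP kinases, *Ripk3* (chromosome 14, 55784995 to 55788857), the kinase that drives necroptosis, spanned the widest range. It had 475, 135 and 1414 counts, or 18.8, 4.70 and 54.3 CPM. The 3 libraries were each more than 2-fold apart, with log2 ratios of -2.00 (-2.29 to -1.72) for eKO against control, 3.53 (3.27 to 3.80) for rLif against eKO and 1.53 (1.38 to 1.68) for rLif against control. *Ripk1*, which joins the TNFR1 complex upstream of *Ripk3*, had 1013, 700 and 1035 counts. Its log2 ratios were -0.72 (-0.86 to -0.58) and 0.71 (0.57 to 0.85), below the limit.

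The feedback inhibitors parted from each other. *Nfkbia* (chromosome 12, 55489409 to 55492647) had 12198, 12679 and 26833 counts, or 483, 441 and 1031 CPM. It was level between the control- and eKO-labelled libraries, with a log2 ratio of -0.13 (-0.17 to -0.09), and higher in the rLif-labelled one, at 1.22 (1.19 to 1.25) against eKO. Against control it was 1.09 (1.06 to 1.12), and scaling by total counts moved this to 0.92, inside the limit. Its exons hold the microRNA gene *Mir1198*. *Tnfaip3* had 161, 101 and 58 counts and went the other way, with a log2 ratio of -1.52 (-1.98 to -1.08) for rLif against control.

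Among the other proteins named for TNF, *Tnfaip6* (TSG-6, a hyaluronan-binding protein) had 100, 479 and 77 counts. Its log2 ratios were 2.07 (1.76 to 2.40) for eKO against control and -2.50 (-2.86 to -2.15) for rLif against eKO. *Tnfaip2* had 472, 151 and 198 counts and was lower than control in both libraries of eKO females, by log2 ratios of -1.83 (-2.10 to -1.56) and -1.30 (-1.54 to -1.06). *Tnfaip8l3* was lowest with rLif, at 32, 39 and 8 counts and a log2 ratio of -2.14 (-3.45 to -1.03) against eKO.

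Set side by side, 7 members were lower in the eKO-labelled library than in both others: *Ripk3*, *Tnfsf9*, *Tnfsf11*, *Tnfrsf1a*, *Fas*, *Tnfrsf12a* and *Tnfrsf1b*. Another 5 were higher there than in both others: *Traf1*, *Tnfsf13*, *Tnfaip6*, *Tnfrsf25* and *Edar*. Both sets contrast the same library labelled eKO with the other pair. The share of all genes with either pattern was not counted, so neither is shown to be particular to these members. The stroma markers also had their highest summed level in that library, at 843, 1289 and 868 CPM, with 8 of 9 markers highest there, and none of the 9 at 0. Leukocyte markers summed to 819, 689 and 654 CPM, most of it from *Lyz2*, at 745, 612 and 549 CPM. Of the 10 detected, 3 were highest in the control-labelled library, 3 in the eKO-labelled one and 4 in the rLif-labelled one. Smooth muscle markers, at 70.4, 50.5 and 31.4 CPM, were lowest in the rLif-labelled library for all 6 of 6 genes. Of the 55 members tested, 14 were lowest there, among them *Ngfr*, *Tnfrsf19*, *Tnfaip3*, *Tnfsf8* and *Tnfaip8l3*, and the share of all genes was not counted. Endothelium markers, at 47.9, 69.4 and 94.1 CPM, were highest in that library for 3 of 6 genes and lowest for 1. Glandular epithelium markers summed to 7.76, 5.22 and 18.8 CPM, and of the 4 detected, 3 were lowest in the eKO-labelled library and 3 highest in the rLif-labelled one. The part of these cell types in the results was not tested. With edgeR's exact test at an assumed dispersion of 0.1 and limits of 2-fold and an FDR of 0.05, 10 of the 17 calls for eKO against control were kept, as were 2 of 8 for rLif against control and 7 of 16 for rLif against eKO. Those lost for eKO against control were *Tnfrsf1a*, *Tnfrsf1b*, *Traf1*, *Tnfaip2*, *Tnfrsf26*, *Tnfrsf4* and *Edar*. Those kept for rLif against control were *Tnfrsf4* and *Ngfr*. Those kept for rLif against eKO were *Fas*, *Ripk3*, *Tnfrsf12a*, *Tnfrsf1b*, *Tnfsf9*, *Tnfaip6* and *Tnfrsf19*.

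**Figure D2:**
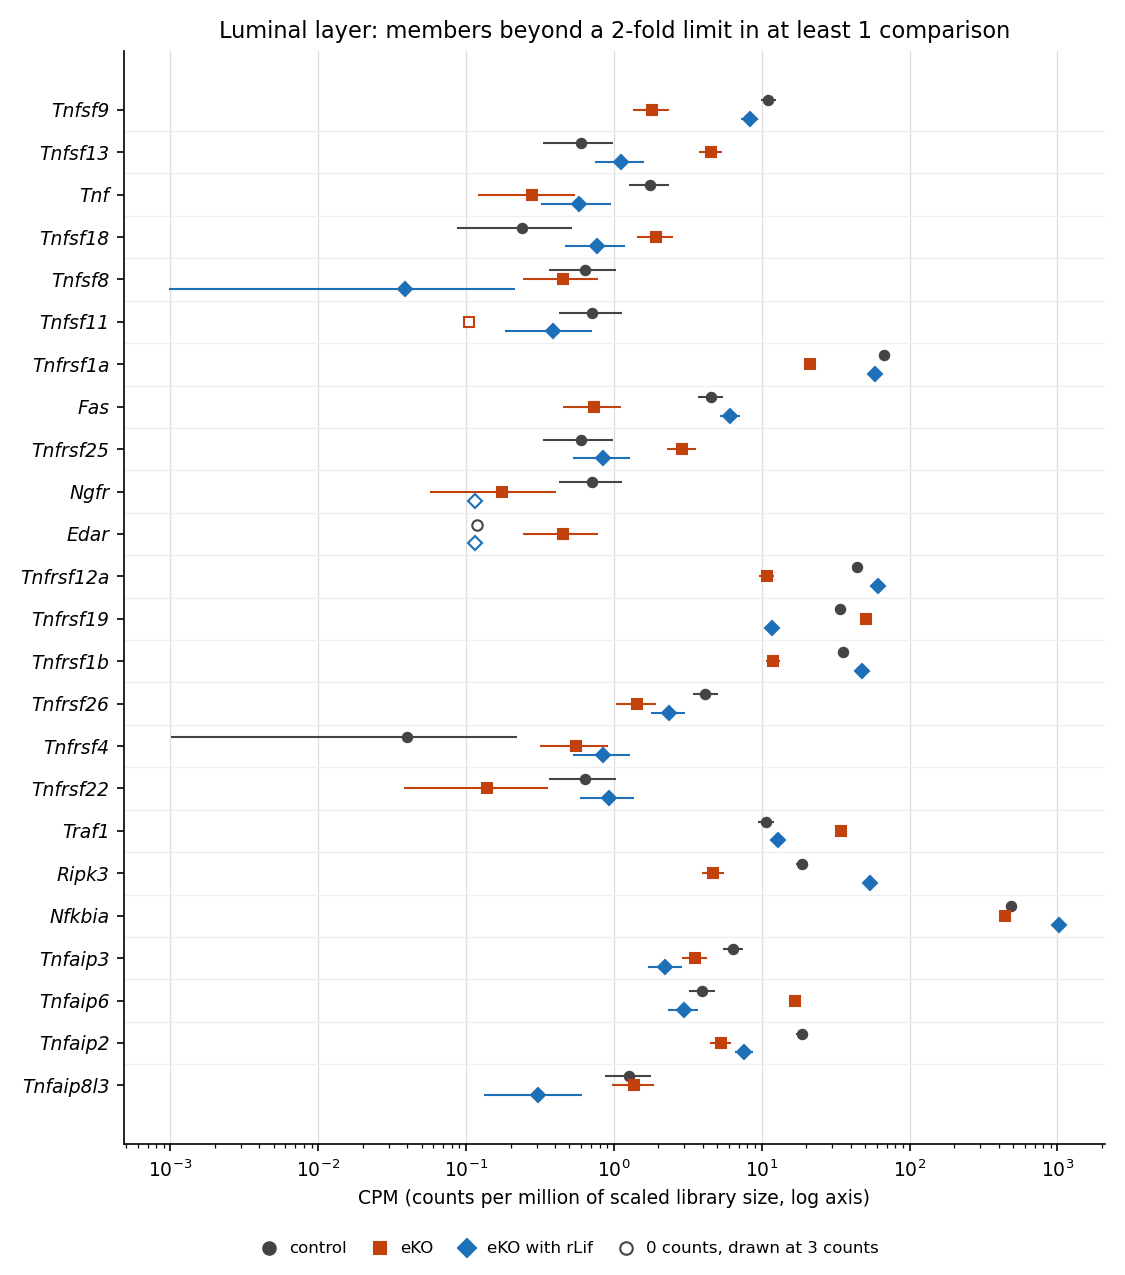
CPM (log axis) in the control-labelled (circles), eKO-labelled (squares) and rLif-labelled (diamonds) luminal libraries for the 24 members called in at least 1 luminal comparison, with exact 95% Poisson intervals of counting error. Open symbols mark 0 counts, drawn at 3 counts. The squares of *Tnfsf9*, *Tnfrsf1a*, *Fas*, *Tnfrsf12a*, *Tnfrsf1b* and *Ripk3* lie left of both other symbols, and those of *Tnfsf13*, *Tnfrsf25*, *Traf1* and *Tnfaip6* lie right of them.

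The 250 bases before the annotated starts were searched for 2 motifs on both strands, as a description only. Windows were found for 47 of the 59 members in the RefSeq table of promoters (GRCm38.p6), 53 windows in all. Among those without a window were *Tnfsf9*, *Tnfrsf22* and *Tnfrsf26*, which were called in the luminal layer. The STAT palindrome TTCNNNGAA, the form bound by STAT3, which Lif activates, was present for 8 of 47 members (17.0%) and 8.13% of all 27025 genes. These were *Fas*, *Ripk1*, *Tnfaip6*, *Tnfrsf18*, *Tnfrsf1a*, *Tnfrsf1b*, *Tnfrsf25* and *Tnfrsf9*. The NF-kB consensus was present for 8 members (17.0%) and 8.23% of all genes, namely *Nfkbia*, *Tnfaip2*, *Tnfaip3*, *Tnfaip8l1*, *Tnfrsf25*, *Tnfrsf8*, *Tnfrsf9* and *Traf3*. The windows below are those with a motif that belong to a member called in a luminal comparison, with the motif in capitals and up to 20 bases on either side, 5′ to 3′ on the strand of the gene. They were chosen with the results known, and *Tnfaip2* is left out because its RefSeq start was not inside a GENCODE transcript. The first 4 hold the STAT palindrome, *Tnfrsf25* holds both motifs, and the others hold the NF-kB consensus, which *Tnfaip3* has at 2 places.
Fas, chr19:34290546-34290594, plus strand, 93 bases before the start: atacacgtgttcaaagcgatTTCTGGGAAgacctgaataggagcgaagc
Tnfrsf1a, chr6:125349473-125349507, plus strand, 244 bases before: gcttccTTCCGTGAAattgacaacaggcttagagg
Tnfrsf1b, chr4:145247023-145247071, minus strand, 181 bases before: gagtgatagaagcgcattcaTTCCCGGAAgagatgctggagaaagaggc
Tnfaip6, chr2:52037884-52037932, plus strand, 209 bases before: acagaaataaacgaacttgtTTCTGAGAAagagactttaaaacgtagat
Tnfrsf25, chr4:152116295-152116342, plus strand, 28 bases before: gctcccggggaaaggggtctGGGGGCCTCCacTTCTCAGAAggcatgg
Nfkbia, chr12:55492648-55492696, minus strand, 29 bases before: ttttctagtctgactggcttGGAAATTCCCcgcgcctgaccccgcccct
Tnfaip3, chr10:19015506-19015555, minus strand, 125 bases before: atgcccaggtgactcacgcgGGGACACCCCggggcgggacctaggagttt
Tnfaip3, chr10:19015411-19015442, minus strand, 12 bases before: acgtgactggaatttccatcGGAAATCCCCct
The STAT palindrome thus stood both before receptors that were low in the eKO-labelled library (*Fas*, *Tnfrsf1a*, *Tnfrsf1b*) and before *Tnfaip6* and *Tnfrsf25*, which were high there. Neither motif stood in the windows of *Ripk3*, *Tnfrsf12a*, *Tnfsf11*, *Tnfsf18* or *Tnf*. A match says nothing of binding, and no match says only that these letters are not in that window.

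Genes of the same pathway outside the superfamily were read from lists. Of 9 NF-kB subunits and inhibitors, 3 were lower in the eKO-labelled library than in control and 0 were higher, against 9.15% and 8.08% of all genes. *Bcl3*, a nuclear IkB protein that acts with NF-kB p50 and p52, had 1485, 122 and 3336 counts and log2 ratios of -3.79 (-4.07 to -3.52) for eKO against control and 4.91 (4.65 to 5.19) for rLif against eKO. *Nfkbie*, another inhibitor, had 163, 16 and 25 counts, at -3.53 for eKO against control. The third was *Rela*, the p65 subunit, and *Nfkbiz*, a nuclear IkB protein, was higher with rLif than in eKO, at 1.37 (906, 568 and 1327 counts). The median of the list was -0.55 for eKO against control, beside 0.01 for all genes, and 0.69 for rLif against eKO, beside -0.01.

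For the kinases, the enzymes of the receptor complex and the death pathway, calls for eKO against control are set beside 17.2% of all genes. Of 14 kinases between receptor and NF-kB or JNK, 1 was called: *Map3k5* (ASK1), lower by a log2 ratio of -1.20, and higher with rLif than in eKO at 1.29. Of 9 ubiquitin enzymes and partners tested, 1 was called, the A20 partner *Tnip1*, at -1.40 and 1.37. Of 10 genes of the death pathway, 1 was called: *Bid*, which carries the death signal to mitochondria, with 3457, 655 and 1605 counts and ratios of -2.59 and 1.43. Of 4 superfamily genes under other names, 1 was called, the receptor *Relt*, at -2.30 for eKO against control and -1.98 for rLif against control.

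Of 13 NF-kB target genes tested, 3 were lower in the eKO-labelled library than in control and 1 was higher, against 9.15% and 8.08% of all genes. *Csf1*, a macrophage growth factor, had 1053, 29 and 311 counts, with log2 ratios of -5.37 (-5.95 to -4.84) for eKO against control and 3.56 (3.01 to 4.17) for rLif against eKO. *Cxcl10* and *Icam1* were the other pair that were lower. *Il6* had 2, 240 and 106 counts, a log2 ratio of 6.72 with a counting interval of 4.85 to 9.77. With rLif, *Cxcl1*, *Icam1*, *Il1b* and *Csf1* were higher than in eKO and 0 were lower, against 7.88% and 7.77% of all genes. Against control, *Il6* and *Il1b* were higher and *Cxcl10* and *Csf1* lower with rLif, against 4.12% and 5.04%.

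In blastocysts the groups differ by the uterus the embryos lay in, and the same rule was applied. Of the 59 members, 41 had at least 10 counts over the 3 libraries, 18 were not tested and 10 of those had 0 counts in all 3. Between blastocysts of eKO and control mothers, 5 of 41 (12.2%) were called, against 3.15% of 14873 genes. These were 3 higher, against 1.29% of all genes, and 2 lower, against 1.86%. Between those of rLif-treated eKO and control mothers, 7 (17.1%) were called, all lower, against 4.94% of all genes, with 3.99% lower and 0.948% higher. Between rLif-treated and untreated eKO mothers, 4 (9.76%) were called, all lower, against 3.75% of all genes, with 2.83% lower and 0.914% higher. The median of the members was -0.18, -0.36 and -0.30 in these comparisons, beside 0.00, -0.01 and -0.01 for all genes. Many calls rested on few reads: with at least 50 counts required, 27 members were tested and 1, 4 and 2 were called. Of all genes, 210, 447 and 325 were then called, in place of 468, 734 and 557. With edgeR's exact test as above, the calls kept for eKO against control were *Tnf* and *Tnfsf9*. For rLif-treated eKO against control only *Tnfsf9* was kept, and for rLif-treated against untreated eKO only *Tnf* and *Tnfaip3*.

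*Tnf* had reads in 1 blastocyst library, with 0, 42 and 0 counts in the libraries from control, eKO and rLif-treated eKO mothers. The library from eKO mothers was thus at least 13.7-fold higher than that from control mothers (interval limit 10.6-fold) and at least 13.9-fold higher than that from rLif-treated mothers (limit 10.8-fold). *Fas* had 0, 19 and 2 counts, which put eKO at least 6.18-fold above control (interval limit 4.55-fold), and a log2 ratio of -3.24 (-6.39 to -1.19) for rLif-treated against untreated eKO. *Tnfaip2* had 21, 115 and 24 counts. Its log2 ratios were 2.42 (1.74 to 3.16) for eKO against control and -2.25 (-2.95 to -1.61) for rLif-treated against untreated eKO. *Tnfaip3* had 36, 92 and 4 counts, the highest also with eKO mothers. It was within the limit for eKO against control at 1.32 (0.75 to 1.92), and beyond it for rLif-treated eKO, at -3.20 (-5.15 to -1.72) against control and -4.52 (-6.42 to -3.11) against untreated eKO. These 4 genes thus had their highest count in the library from eKO mothers. Most members did not: of 41 tested, 24 had their highest CPM with control mothers, 14 with eKO mothers and 3 with rLif-treated mothers.

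Leukocyte markers were also highest, in sum, with eKO mothers. Their summed level was 63.8, 127 and 22.7 CPM, with 7 of 11 markers highest in the library from eKO mothers and 8 of 11 lowest in that from rLif-treated mothers, and none at 0. The T-cell genes *Cd3e* and *Cd3g* were among the 4 that were highest with control mothers. *Lyz2*, the lysozyme gene of macrophages and neutrophils, had 976, 2128 and 289 counts and carried most of the sum. *Itgam*, an integrin of myeloid cells, had 48, 101 and 33 counts, *Csf1r*, the receptor of macrophage growth factors, 31, 68 and 10, and the pan-leukocyte gene *Ptprc* 26, 41 and 19. The part of leukocytes in the blastocyst results was not tested.

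Other members were low in the library from rLif-treated mothers. *Nfkbia* had 411, 216 and 105 counts, with log2 ratios of -0.96 (-1.21 to -0.72) for eKO against control and -2.00 (-2.32 to -1.68) for rLif-treated eKO against control. *Ripk3* had 57, 24 and 7 counts, at -1.28 (-2.04 to -0.57) and -3.05 (-4.43 to -1.92). *Tnfrsf21* had 629, 409 and 204 counts, at -0.66 (-0.84 to -0.48) and -1.65 (-1.89 to -1.42). In each of these 3 genes the libraries stood in the order control, eKO and rLif-treated eKO, and the call was made only between the first and the last. Uterine stroma markers were also highest with control mothers for 8 of 9 genes. Of the 8 tested, 4 were called lower in rLif-treated eKO than in control, against 3.99% of all genes, with a median of -1.49. Among them *Dcn*, a matrix proteoglycan, had 164, 84 and 51 counts, *Col3a1*, a collagen, 122, 60 and 28, and *Hoxa10*, a uterine transcription factor, 48, 17 and 6. The summed level of the list was 158, 160.1 and 152 CPM, most of it from *Pdgfra*, the exception, at 123, 146 and 139.8 CPM. The gland factor *Foxa2* had 103, 61 and 26 counts, against 3, 0 and 10 in the luminal libraries. The other gland markers were at or near 0 in blastocysts: *Prss28* had 0, 0 and 0 counts, *Prss29* 2, 0 and 0, and *Wfdc3* 1, 0 and 4. The gland list as a whole thus did not follow *Foxa2*. Of the 9 stroma markers *Hand2* was at 0 with eKO mothers. The part of uterine tissue in these results was not tested. *Tnfsf12* had 28, 7 and 2 counts, with -3.84 (-6.95 to -1.85) for rLif-treated eKO against control. *Tnfsf9* had 22, 0 and 0 counts, at least 7.52-fold and at least 7.48-fold lower than in control (interval limits 5.62-fold and 5.59-fold). *Tnfsf13b* had 12, 0 and 5 counts, which put eKO at least 4.10-fold below control (limit 2.85-fold). *Tnfrsf23* had 14, 7 and 0 counts, which put rLif-treated eKO at least 4.76-fold below control (limit 3.38-fold).

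The receptors of TNF and the core of the complex did not pass the limit in blastocysts. *Tnfrsf1a* had 109, 138 and 67 counts, with log2 ratios of 0.30 (-0.07 to 0.68) for eKO against control and -1.03 (-1.48 to -0.60) for rLif-treated against untreated eKO. *Tnfrsf1b* had 155, 185 and 123 counts, at 0.22 and -0.58. *Ripk1*, with 525, 560 and 418 counts, and *Traf2*, with 1103, 937 and 934, had log2 ratios of -0.36 and -0.27 for rLif-treated eKO against control. *Tnfrsf9*, the abundant receptor of these libraries, had log2 ratios of -0.29 (-0.38 to -0.19) for eKO against control and -0.87 (-0.98 to -0.76) for rLif-treated eKO against control. *Tnfrsf8* had -0.75 and -0.49 in the same comparisons, and *Traf1* had 76, 42 and 60 counts and stayed within the limit.

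**Figure D3:**
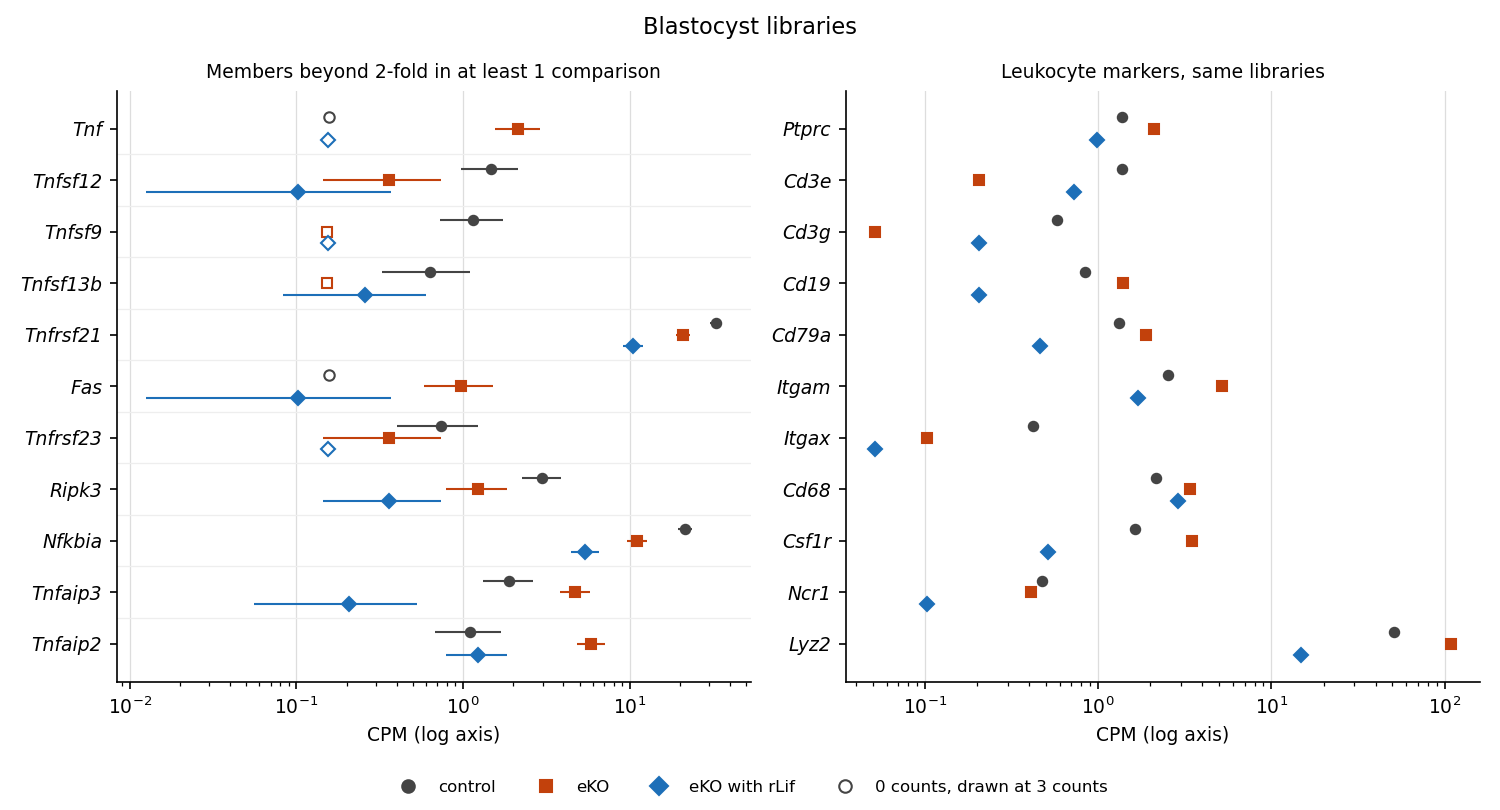
CPM (log axis) in blastocyst libraries from control (circles), eKO (squares) and rLif-treated eKO mothers (diamonds) for the 11 members called in at least 1 blastocyst comparison, with exact 95% Poisson intervals (left), and for 11 leukocyte markers without intervals (right). Open symbols mark 0 counts, drawn at 3 counts. *Tnf*, *Fas*, *Tnfaip3* and *Tnfaip2* have the square rightmost, as have *Lyz2*, *Itgam* and *Csf1r*.

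Several target genes of NF-kB were also highest with eKO mothers. Of 11 tested, 4 were higher in the library from eKO mothers than in control and 0 were lower, against 1.29% and 1.86% of all genes, and the median was 0.95, beside 0.00 for all genes. *Cxcl2*, a neutrophil chemokine, had 0, 131 and 0 counts, so eKO was at least 42.6-fold above control (interval limit 34.2-fold). The others were the chemokines *Cxcl10* and *Ccl2* and the cytokine *Il1b*. With rLif, these 4 and *Csf1* were lower than in untreated eKO and 0 of 11 were higher, against 2.83% and 0.914% of all genes. Of 9 NF-kB subunits and inhibitors, 0 were called for eKO against control, and *Nfkbiz* was lower with rLif than in control at -2.41. None of the 14 kinases and none of the 8 ubiquitin enzymes tested was called by the interval rule in any blastocyst comparison, so no difference wholly beyond 2-fold was detectable there at this depth. In the death pathway *Casp8*, with 18, 47 and 7 counts, was lower with rLif than in untreated eKO, at -2.74. *Eda*, the ligand of *Edar*, had 47, 61 and 138 counts and was higher with rLif than in control at 1.53, while *Edar* itself had 6, 1 and 6.

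**Figure D4:**
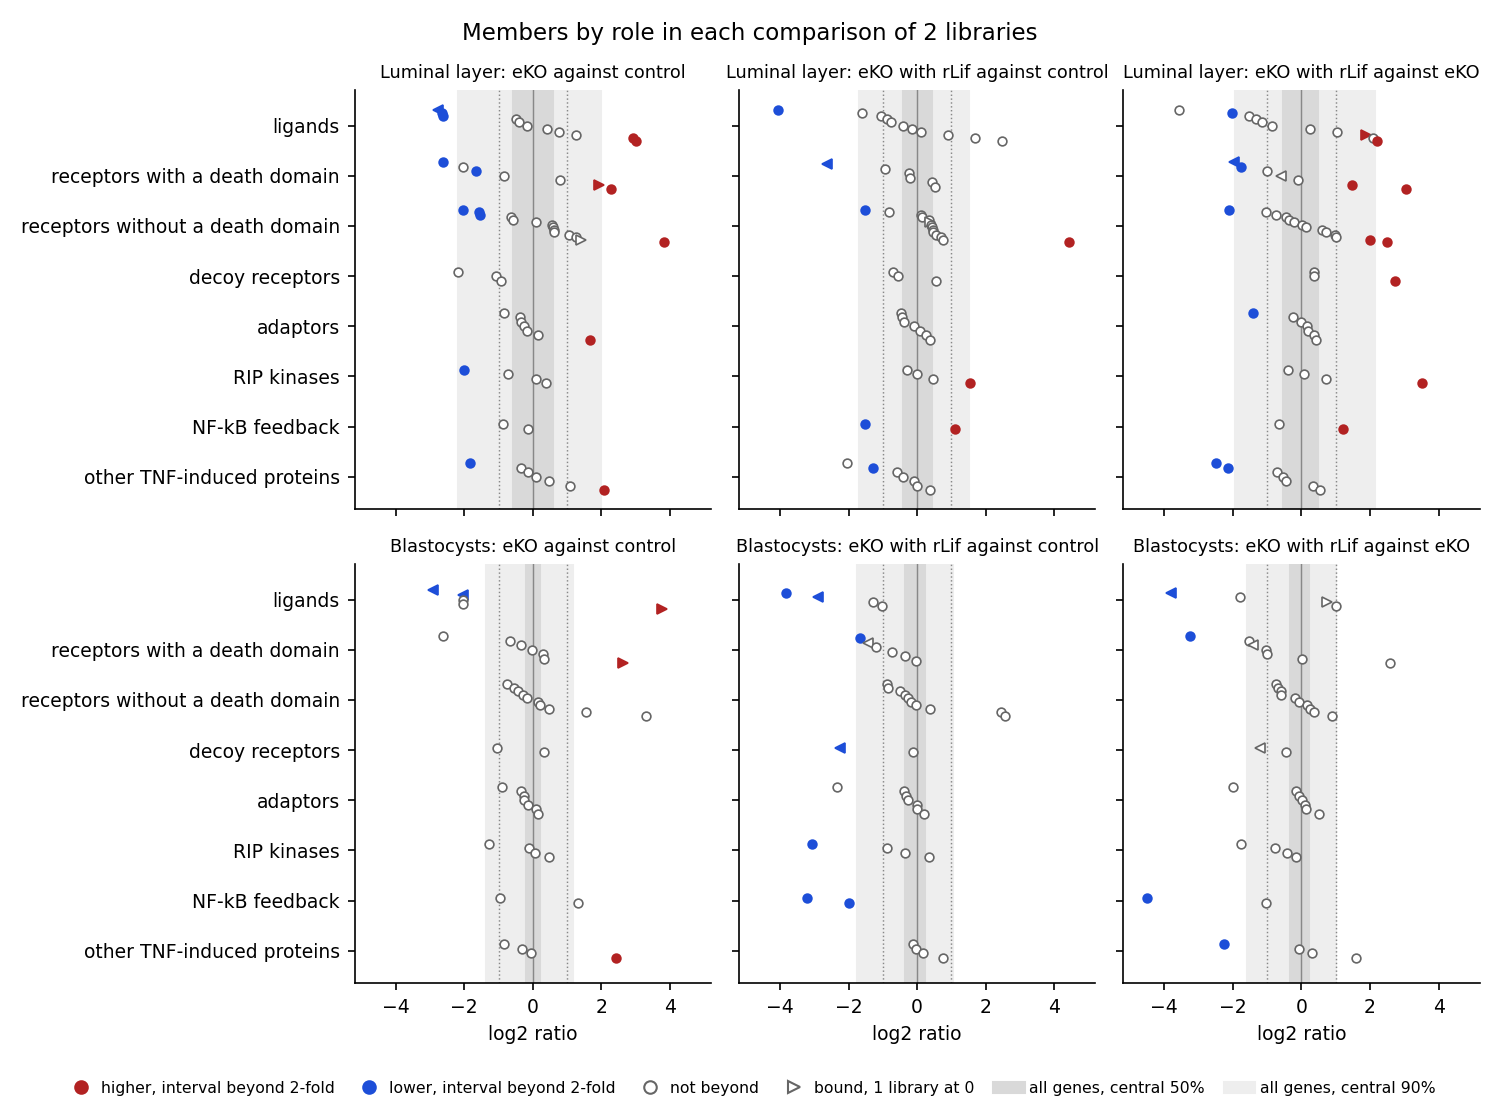
Log2 ratio of 2 libraries (x) for every member tested, in rows by role, for the 3 luminal comparisons (top) and the 3 blastocyst comparisons (bottom). Filled red and blue symbols have an interval wholly beyond 2-fold, triangles are bounds where 1 library had 0 counts, and grey bands hold the central 50% and 90% of all genes tested. In the luminal panels the calls fall on both sides of 0 for eKO against control, with 7 higher and 10 lower, and the 7 and 4 calls of the blastocyst panels with rLif all lie below 0.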

How the data were processed

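RNA of the luminal layer and of blastocysts was amplified by the authors with an ultra-low-input SMART-seq kit. Per the labels and the submitters' processing notes, reads were aligned to GRCm38/mm10 with HISAT2 and assigned to genes with featureCounts of Subread 2.0.0. The deposited values are whole-number counts per gene, not normalized, although the study's methods speak of RPKM. Strand use in counting is not given in the sources used here, so overlapping genes cannot be told apart. No per-sample column was left unused.

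Each group was 1 library, so the calls rest on no p-value and none is printed. TMM factors from edgeR 4.0.16 (R 4.3.3) set the library sizes, within a tissue for ratios and over the 6 libraries for tissues. Genes with at least 10 counts over the 3 libraries of a tissue were kept, the ratio of each pair of libraries was given an exact 95% Clopper-Pearson interval (scipy 1.17.1), and a gene was called when the whole interval lay beyond 2-fold. Levels carry exact Poisson intervals, and TPM used the gene lengths in the tables. Where a library had 0 counts, bounds used 3 counts in that library and the other count as measured. The scripts were tested on simulated data. Alternatives were DESeq2 1.42.0 size factors, total counts, minimums of 1 and 50 counts, and edgeR's exact test at a dispersion of 0.1. Precision follows from totals of 18996158 to 28460465 counts. Gene names had been turned into dates in 25 rows, and these were not named.

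Named were all members called within or between tissues, 7 members whatever their values, the 5 highest in TPM per tissue, and members at the end of a range. For pathway lists, values were given for at most 3 called genes with the largest ratio or bound. Members, lists and rules were chosen with earlier results of these data known.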

Additional observations from a re-analysis of the deposited data

Results flagged for a closer look

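Some members were called in opposite directions in the luminal layer and in blastocysts. How many of all genes were so called was not counted, so this is not shown to be particular to the members. The difference between tissues was not tested, since each group was 1 library. For eKO against control, *Tnfaip2* had a log2 ratio of -1.83 in the luminal layer and 2.42 in blastocysts. In the same comparison *Tnf* had -2.65 in the luminal layer and was at least 13.7-fold higher in blastocysts of eKO mothers (interval limit 10.6-fold), and *Fas* had -2.63 and was at least 6.18-fold higher (limit 4.55-fold). For eKO with rLif against control, *Nfkbia* had 1.09 and -2.00, and *Ripk3* had 1.53 and -3.05. For eKO with rLif against eKO, *Fas* had 3.06 in the luminal layer and -3.24 in blastocysts. The leukocyte marker sums that stood beside these calls were 819, 689 and 654 CPM in the luminal libraries. In blastocysts they were 63.8, 127 and 22.7 CPM, and *Lyz2* carried most of each sum. Of 9 stroma markers, 8 were highest in the eKO-labelled library in the luminal layer and 8 with control mothers in blastocysts. The part of leukocytes and stroma was not tested.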

How the results depend on the processing

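No paired analysis was possible because each group was 1 library, and no replicate could be left out. With edgeR's exact test at a dispersion of 0.1, 10, 2 and 7 members were called in the luminal comparisons of eKO with control, eKO with rLif with control, and eKO with rLif with eKO, in place of 17, 8 and 16, and 2, 1 and 2 in the blastocyst comparisons, in place of 5, 7 and 4. Over all genes that test called 1250, 342, 1109, 65, 124 and 58, in place of 2704, 1438, 2456, 468, 734 and 557. Requiring 50 counts left 5 of 44 members tested in the luminal comparison of eKO with rLif with control. In blastocysts it left 1, 4 and 2 of 27. Scaling by total counts moved *Nfkbia* for that luminal comparison from 1.09 to 0.92, inside the limit, and the median of all genes from 0.01 to -0.16. For eKO with rLif against eKO it moved the median from -0.01 to -0.12. Under DESeq2 size factors, total counts and a minimum of 1, 254 of 255 values of single members kept direction and side of the limit. The minimum of 50 counts and edgeR's exact test were not among these settings. The minimum of 1 leaves the counts of a member as they were and changes only the scaling. Members called between tissues numbered 21 to 27, in place of 25. Depth limits members with under 10 counts, and the intervals hold no variation between animals.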
